A study of Mus musculus with 18 samples.

Results

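The interleukin 1 (IL-1) family genes described here are 10 genes of IL-1-type signalling: the ligands Il1a, Il1b, Il36a, Il36b, Il36g, Il18 and Il33, the receptor antagonist Il1rn, the signalling receptor Il1r1 and the decoy receptor Il1r2. They were taken by name. Each of the 10 symbols had exactly 1 row (a transcript cluster, the array's unit for a gene) among the 23521 rows that name a single gene, and no row that names several genes named any of them. The array annotation carries Il36a, Il36b and Il36g under their older names Il1f6, Il1f8 and Il1f9, and these were matched through the gene table's synonyms.

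IL-1 family ligands are alarm cytokines. Keratinocytes hold stores of several of them, and injury releases them. IL-1 alpha and IL-1 beta bind the receptor encoded by Il1r1, which pairs with an accessory chain and signals through MyD88 and the IRAK kinases to NF-kB. The product of Il1rn occupies that receptor without signalling, and the product of Il1r2 binds the ligand without signalling. IL-1 beta and IL-18 are made as inactive precursors that caspase-1 cuts in an inflammasome, so a transcript level does not give the level of active cytokine. The IL-36 ligands act on a separate receptor chain and are made mainly by epithelia, and IL-33 is a nuclear alarmin of barrier cells.

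The arrays compared female mice without the aryl hydrocarbon receptor, AhR (B6.129-AhRtm1Bra/J, genotype AhR-/-, abbreviated KO), with littermates that carry it (genotype AhR+/+, abbreviated WT), all on a B6;129 background. AhR is a transcription factor switched on by small ligands. KO lack it in every cell, not only in the epidermis, and the sources used here do not give the ages of the mice. Shaved back skin was stripped 5 times with adhesive film, and epidermal sheets were taken before stripping (0 h, unstressed) or at 6 h or 24 h after it. The groups were KO and WT at 0 h, KO and WT at 6 h, and KO and WT at 24 h, with 3 arrays each and 18 arrays in all.

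The deposited values are logarithms, taken here as log2, and the median of each row over the 18 arrays is 0. A value of 1 therefore lies 1 log2 unit above that gene's own median array. Nothing in the file says how abundant a transcript was, so levels of different genes cannot be set against each other, and it could not be checked from levels that the sheets were keratinocytes. In whole sheets, fewer cells of a type and less RNA per cell cannot be told apart. A difference was called when limma's Benjamini-Hochberg adjusted p over all 23521 rows was under 0.05. Ahr, the deleted gene, was lower in all KO arrays than in any WT array of the same time. Its log2 difference was -0.32 at 0 h with an adjusted p of 0.556, -1.11 at 6 h with an adjusted p of 0.00549, and -0.70 at 24 h with an adjusted p of 0.22. Within KO, Ahr also passed against 0 h, with differences of -0.65 at 6 h (limma adjusted p 0.0209) and -0.62 at 24 h (limma adjusted p 0.0147). In WT the same comparisons gave 0.14 and -0.25 and did not pass. The KO arrays of 0 h (-0.13 to 0.04) overlapped the WT arrays of 24 h (-0.01 to 0.12). The sources used here do not say which part of Ahr its probes cover. Array medians lay between -0.0187 and 0.0107 and the SDs within an array between 0.134 and 0.222. Each sample also carries a 4-digit number in the labels, with no word on its meaning. It is below 3000 for 7 arrays, all from 0 h and 6 h, and was treated as a possible batch. At 0 h these are KO replicate 1 and WT replicates 2 and 3, and at 6 h replicates 2 and 3 of each genotype. KO against WT at 0 h, KO at 6 h against 0 h, and 24 h against earlier times are thus unbalanced in it. Such comparisons, and those built on them, are partly confounded with that possible batch.

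The 250 bases upstream of a transcription start were at hand for 9 of the 10 genes, with 13 starts in all, from RefSeq on mouse build GRCm38.p6. Those of Il1b and Il1r1 are shown because these are the 2 genes that passed a test, and those of Il36b and Il36g because their values followed each other most closely. Each runs 5′ to 3′ on the gene's own strand and ends at the base before the start. Capitals mark matches, on either strand, to GCGTG (the core that AhR binds with ARNT), TGANTCA (AP-1), TATAAA (the TATA box) or the NF-kB motif. Positions count back from the start. The Il1b stretch lies at chr2:129371140-129371389 on the minus strand, the Il1r1 stretch before the second of its 2 starts at chr1:40266336-40266585 on the plus strand, the Il36b stretch at chr2:24152922-24153171 on the plus strand and the Il36g stretch at chr2:24186226-24186475 on the plus strand.
Il1b upstream sequence: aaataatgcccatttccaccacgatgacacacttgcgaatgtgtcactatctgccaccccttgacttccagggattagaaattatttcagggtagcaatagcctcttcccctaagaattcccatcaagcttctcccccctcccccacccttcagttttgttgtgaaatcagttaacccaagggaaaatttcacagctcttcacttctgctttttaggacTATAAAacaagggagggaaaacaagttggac
Il1r1 upstream sequence: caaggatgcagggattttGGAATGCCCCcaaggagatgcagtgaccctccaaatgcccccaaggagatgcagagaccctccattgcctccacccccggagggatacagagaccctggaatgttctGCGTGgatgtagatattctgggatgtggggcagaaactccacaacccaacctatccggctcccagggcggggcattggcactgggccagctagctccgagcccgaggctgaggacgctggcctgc
Il36b upstream sequence: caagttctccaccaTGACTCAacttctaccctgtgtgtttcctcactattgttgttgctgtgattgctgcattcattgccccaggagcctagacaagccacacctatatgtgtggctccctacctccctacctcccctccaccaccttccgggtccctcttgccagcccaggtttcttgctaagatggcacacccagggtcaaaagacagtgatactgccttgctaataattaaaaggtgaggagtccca
Il36g upstream sequence: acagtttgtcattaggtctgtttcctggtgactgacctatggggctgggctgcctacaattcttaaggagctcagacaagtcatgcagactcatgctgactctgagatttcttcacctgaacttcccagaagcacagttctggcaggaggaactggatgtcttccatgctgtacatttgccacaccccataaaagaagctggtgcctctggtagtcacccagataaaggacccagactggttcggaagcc

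The Il1b stretch held a TATA match at -31 and no match to the AhR core. The Il1r1 stretch held an AhR core match at -125 and an NF-kB match at -232, and the stretch before its first start held no match to any of the 4 motifs. Il36b had an AP-1 match at -236, and Il36g had no match. Over all 13 starts of the family, 3 held the AhR core, against 28.2% of the 32841 starts in the table. An AP-1 match stood before 3 starts (6.75% of all starts), an NF-kB match before 1 (7.25%) and a TATA match before 5 (12.4%). The other AhR core matches were in Il1r2, at -43 and -27, and in the first Il1rn start at -136, where the match overlaps an AP-1 match at -141. These are matches of letters only.

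Il1b was the family gene called between KO and WT after stripping. It encodes IL-1 beta, which immune cells make in quantity on activation. In unstressed epidermis its values were 0.56, 0.004 and -1.02 in KO and -0.30, -0.004 and 0.20 in WT. The WT values lay inside the KO range. At 6 h it stood at 1.59, 1.09 and 1.48 in KO and at -0.23, -0.62 and -0.40 in WT. At 24 h it stood at 0.96, 0.34 and 0.83 in KO and at -0.67, -2.40 and -0.94 in WT. The groups did not overlap at either time after stripping, and every KO array lay above every WT array.

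**Figure D1:**
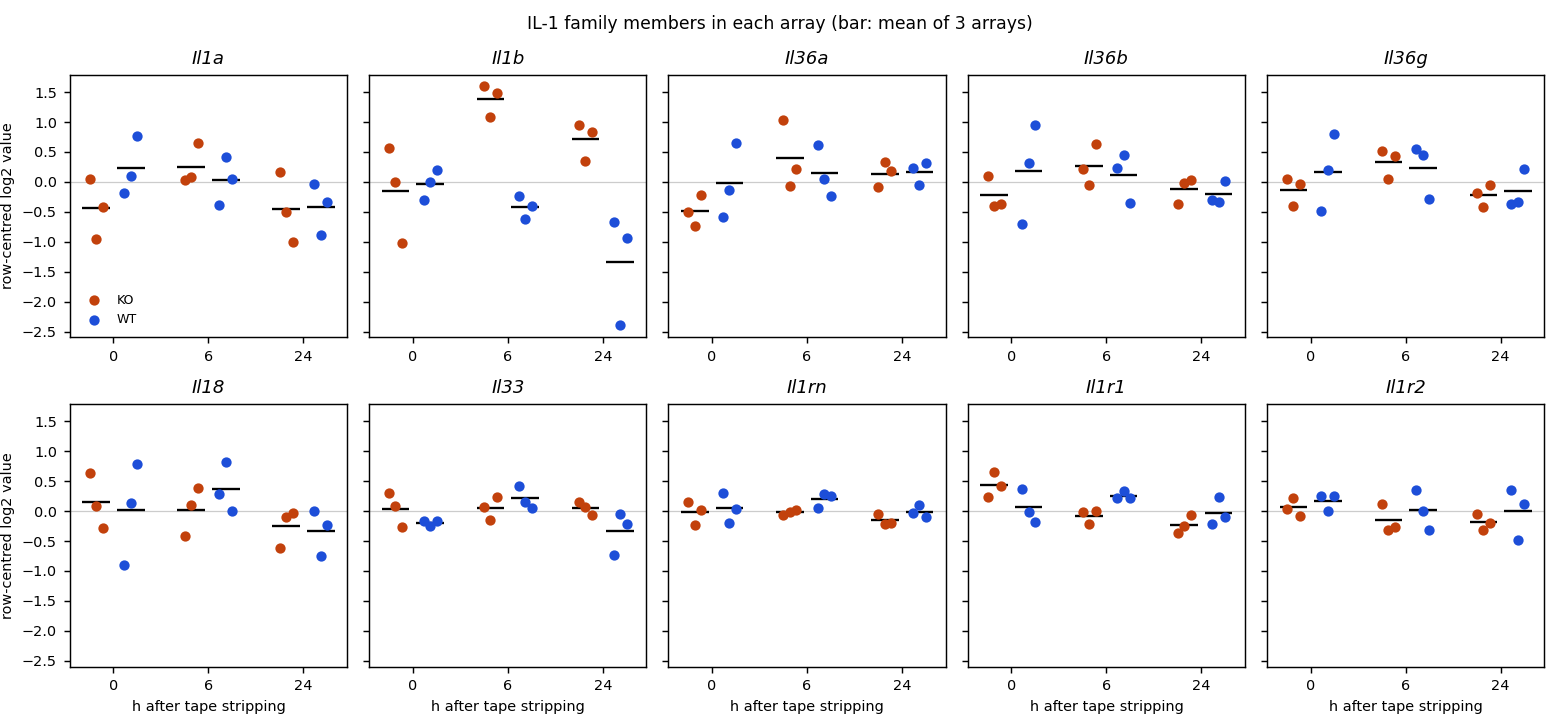
Row-centred log2 value of each of the 10 IL-1 family genes (panels) in each array, by h after tape stripping, with KO arrays in orange left of WT arrays in blue and a bar at the mean of 3 arrays. Il1b is the gene whose KO and WT arrays separate at both 6 h and 24 h, and its lowest array is a WT array of 24 h at -2.40.

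At 6 h Il1b was higher in KO than in WT by 1.80 log2 units (SE 0.402, 95% CI 0.95 to 2.66, n = 3 arrays each), or 3.49-fold, with a limma adjusted p of 0.0346. If the deposited values were natural logarithms, the same difference would be 6.07-fold. It was the 304th smallest p of the 23521 rows. At 24 h the difference was 2.04 log2 units (SE 0.402, 95% CI 1.18 to 2.90), or 4.12-fold. Its adjusted p of 0.197 did not pass, although its unadjusted p of 0.000142 was the 17th smallest. At 0 h the difference was -0.11 log2 units (95% CI -0.97 to 0.74, adjusted p 0.983). Averaged over the 3 times, Il1b was higher in KO by 1.24 log2 units (SE 0.232, adjusted p 0.0299). With 3 arrays against 3, the smallest 2-sided p of an exact permutation test is 0.1, and that test was not used.

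Over time, Il1b passed in KO alone, and the difference between the genotypes' responses did not pass. In KO it was higher at 6 h than at 0 h by 1.54 log2 units (SE 0.402, adjusted p 0.0406), which passed, and at 24 h than at 0 h by 0.86 (adjusted p 0.217), which did not. In WT the same comparisons gave -0.38 at 6 h, with an adjusted p of 0.9999, and -1.30 at 24 h, with one of 0.182. The 3 WT arrays of 24 h all lay below the 3 of 0 h. The difference between the genotypes in the response was itself 1.92 log2 units at 6 h (95% CI 0.70 to 3.13, adjusted p 0.13) and 2.16 at 24 h (95% CI 0.94 to 3.37, adjusted p 0.256), and neither passed. Markers of Langerhans cells moved with the called rise: of 8 measured, 8 had a difference above 0 in KO at 6 h against 0 h, with a median of 0.46 log2 units against 0.02 for all rows. Their mean lay between 0.03 and 0.21 in KO at 6 h and between -0.74 and -0.13 in KO at 0 h. Of the 8, 1 passed there, where 4.98% of all rows did: Mfge8, a secreted glycoprotein, with a difference of 1.27 (adjusted p 0.00945). For the difference between the genotypes in the 6 h response, 8 of 8 were above 0 with a median of 0.54. Of these Mfge8 passed (1.53, adjusted p 0.0397), where 0.731% of all rows did. Some other lists lay mostly above 0 in KO at 6 h against 0 h too. Above 0 were 11 of 12 neutrophil, 9 of 12 monocyte and macrophage, and 7 of 9 gamma-delta T cell markers. In each of these lists 0 genes passed, where 4.98% of all rows did. The medians of these lists were 0.10, 0.11 and 0.29 log2 units, while those of keratinocyte and melanocyte markers were -0.01 and -0.10. Of single rows, 24.5% did not overlap in this comparison. The neutrophil mean, like the Langerhans mean, did not overlap, at 0.03 to 0.43 in KO at 6 h and -0.11 to -0.01 in KO at 0 h. The part of any of these cells in the rise of Il1b was not tested. Ordered by group mean, Il1b ran from KO 6 h (1.39 ± 0.26, SD) through KO 24 h (0.71 ± 0.32), WT 0 h (-0.04 ± 0.25), KO 0 h (-0.15 ± 0.80) and WT 6 h (-0.42 ± 0.19) to WT 24 h (-1.33 ± 0.93), each of 3 arrays. Neighbours overlapped in the middle of that order, WT 0 h with KO 0 h and KO 0 h with WT 6 h, and not elsewhere.

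Which arrays entered mattered for whether Il1b passed. The 6 h difference kept a size of 1.70 to 1.95 log2 units when any one array was left out. It lost its call without KO 6 h replicate 1 (1.70, adjusted p 0.0529), replicate 2 (1.95, adjusted p 0.0631) or replicate 3 (1.76, adjusted p 0.126), and without WT 6 h replicate 2 (1.70, adjusted p 0.126) or replicate 3 (1.81, adjusted p 0.133). The 6 h against 0 h call in KO was lost without KO 0 h replicate 2 or 3, WT 0 h replicate 2, any KO 6 h replicate, WT 6 h replicate 3 or KO 24 h replicate 1, with values of 1.11 to 1.69 and adjusted p of 0.0501 to 0.172. The call averaged over the times was lost without KO 0 h replicate 1 or 2, any WT 0 h replicate, KO 6 h replicate 3, WT 6 h replicate 2 or 3, or KO 24 h replicate 1, with values of 1.13 to 1.28 and adjusted p of 0.0513 to 0.0755. Fitted on the 6 h arrays alone the 6 h difference gave 1.80 with an adjusted p of 0.0963. Within label numbers below 3000, with 2 arrays against 2, the difference was 1.79 (adjusted p 0.0162), and within numbers from 3000 up it was 1.82 with 1 array against 1, a value without replicates of its own. The 24 h difference, whose arrays all have numbers from 3000 up, was 1.51 (adjusted p 0.508) without WT 24 h replicate 2, the array at -2.40.

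**Figure D2:**
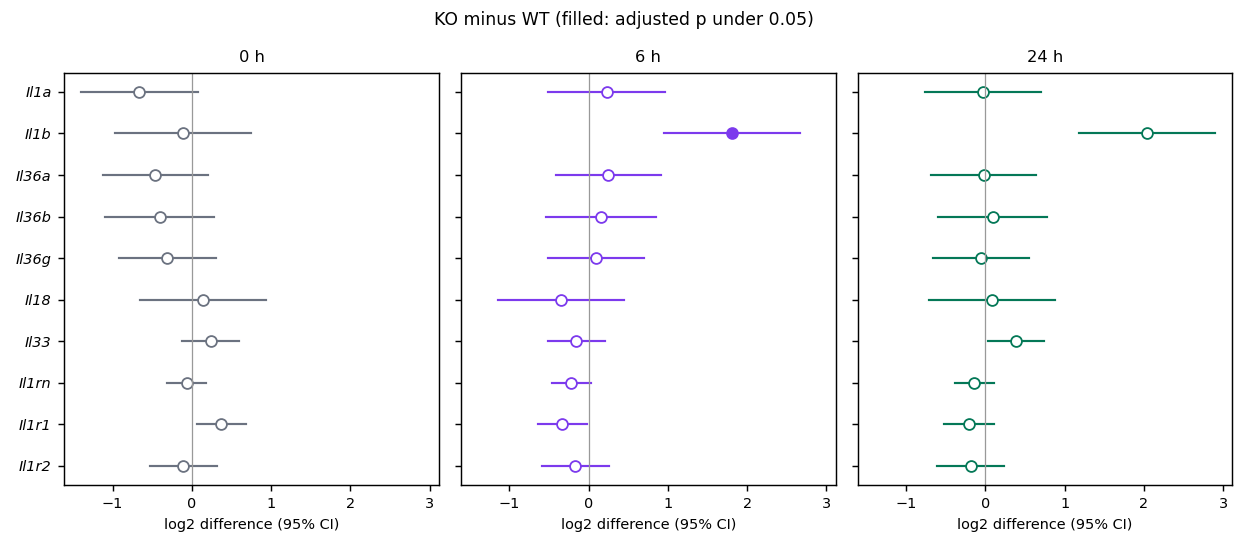
KO minus WT log2 difference (points, with 95% confidence intervals from limma as lines) for the 10 genes at 0 h, 6 h and 24 h, filled where the adjusted p was under 0.05. Il1b stands at 1.80 at 6 h and 2.04 at 24 h, while the differences of the other 9 genes lie between -0.66 and 0.39 over the 3 times.

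Across the family, 1 of 10 genes passed between KO and WT at 6 h, against 2.18% of all tested rows in either direction and 0.366% that were higher in KO. The median difference of the 10 was -0.03 log2 units, against 0.01 for all rows, with 5 above 0 and 5 below. Groups did not overlap for 3 of the 10 at 6 h, against 17.7% of rows: Il1b higher in KO, and Il1rn and Il1r1 lower. At 24 h limma called 0 of 10, against 0.017% of rows, with 2 of 10 at an unadjusted p under 0.05 against 6.71% of rows, and groups did not overlap for Il1b alone, 1 of 10 against 12.9% of rows. At 0 h it also called 0 of 10, against 0.0978% of rows, with 1 at an unadjusted p under 0.05 against 8.48% of rows, and groups overlapped for all 10, where 13.7% of rows did not overlap. Averaged over the times, 1 of 10 passed and was higher in KO, against 0.374% of rows in either direction and 0.051% that were higher. These comparisons share arrays with each other, so they are not independent of one another.

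Il1a, which encodes the IL-1 alpha that keratinocytes store and that lies beside Il1b in the mouse genome, gave no call. At 0 h it stood at 0.06, -0.95 and -0.42 in KO and at -0.19, 0.10 and 0.76 in WT. At 6 h it stood at 0.03, 0.08 and 0.65 in KO and at -0.38, 0.41 and 0.04 in WT. At 24 h it stood at 0.17, -0.51 and -1.0 in KO and at -0.03, -0.88 and -0.34 in WT. The genotypes overlapped at every time. The KO minus WT difference was -0.66 log2 units at 0 h (95% CI -1.40 to 0.07, adjusted p 0.662), 0.23 at 6 h and -0.03 at 24 h, these with adjusted p of 0.826 and 0.995. In KO, 6 h against 0 h gave 0.69 (SE 0.344, adjusted p 0.274). Over the 18 arrays Il1a correlated with Il1b at r = 0.38 and, after the group means were taken out, at 0.416. The arrays share their processing, and these values are descriptions.

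The IL-36 ligands Il36a, Il36b and Il36g, which act in psoriasis-type inflammation of the epidermis, gave no call between KO and WT. Il36a was the one with the largest change with time. The KO arrays stood at -0.50, -0.74 and -0.22 at 0 h, at 1.03, -0.07 and 0.22 for 6 h, and at -0.08, 0.33 and 0.17 for 24 h. The KO arrays of both later times lay above all those of 0 h. The WT arrays stood at -0.59, -0.13 and 0.66 at 0 h, at 0.62, 0.05 and -0.23 for 6 h, and at 0.23, -0.05 and 0.31 for 24 h, which overlap throughout. In KO, 6 h against 0 h gave 0.88 log2 units (95% CI 0.22 to 1.54, adjusted p 0.116) and 24 h against 0 h gave 0.62 (adjusted p 0.25). In WT the same comparisons gave 0.17 and 0.18, with adjusted p of 0.9999 and 0.874. Between genotypes Il36a differed by -0.46 at 0 h, 0.25 at 6 h and -0.02 at 24 h.

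Il36b and Il36g moved as a pair from array to array. Il36b stood between -0.40 and 0.10 in KO and between -0.70 and 0.94 in WT at 0 h, between -0.06 and 0.64 in KO and between -0.34 and 0.45 in WT at 6 h, and between -0.36 and 0.03 in KO and between -0.34 and 0.01 in WT at 24 h. Il36g stood between -0.40 and 0.04 in KO and between -0.49 and 0.80 in WT at 0 h, between 0.04 and 0.51 in KO and between -0.28 and 0.54 in WT at 6 h, and between -0.43 and -0.06 in KO and between -0.36 and 0.22 in WT at 24 h. The widest spread of both genes was among the unstressed WT arrays, and KO and WT overlapped at every time. KO minus WT differences ran from -0.41 to 0.16 log2 units for Il36b and from -0.31 to 0.09 for Il36g, with adjusted p between 0.847 and 0.989. In KO, 6 h against 0 h gave 0.49 for Il36b (adjusted p 0.429) and 0.46 for Il36g (adjusted p 0.386).

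The Il36b and Il36g values correlated at r = 0.883 over the 18 arrays and at 0.869 after the group means were taken out. Il36b also correlated with Il18, which lies on another chromosome, at 0.755 and 0.859, and Il36a with Il36g at 0.652 and 0.765. Il36b and Il1b gave 0.36 and 0.314. The arrays in which Il36b was high were thus mostly those in which Il36g and Il18 were high. All these points come from the same 18 arrays and the same normalisation, and they carry no test.

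**Figure D3:**
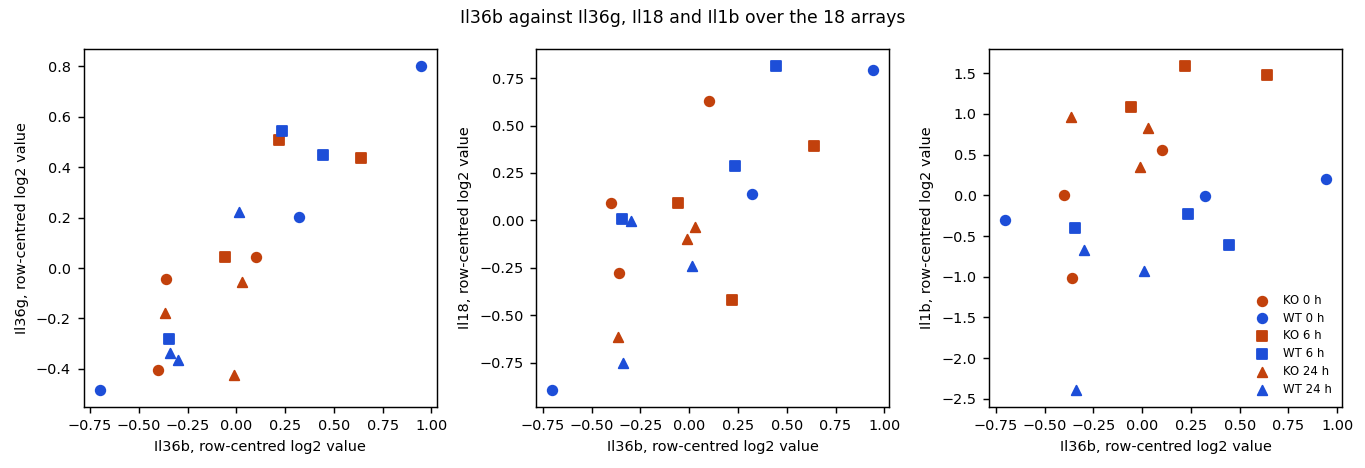
Row-centred log2 value of Il36b (x axes) against Il36g, Il18 and Il1b (y axes) over the 18 arrays, with KO in orange, WT in blue and circles, squares and triangles for 0 h, 6 h and 24 h. Il36g and Il18 climb with Il36b across groups (r = 0.883 and 0.755), while the KO arrays of 6 h and 24 h lie above the WT arrays of those times for Il1b at like values of Il36b.

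Il18, another caspase-1 substrate that keratinocytes make without stress, stood at 0.63, 0.09 and -0.27 in KO and at -0.89, 0.14 and 0.79 in WT at 0 h. At 6 h it stood at -0.42, 0.09 and 0.39 in KO and at 0.29, 0.82 and 0.01 in WT. At 24 h it stood at -0.61, -0.10 and -0.03 in KO and at -0.01, -0.75 and -0.24 in WT. The genotypes overlapped at each time, and no comparison of Il18 passed. The KO minus WT difference was 0.14 log2 units at 0 h (95% CI -0.66 to 0.93), -0.35 at 6 h (95% CI -1.14 to 0.45) and 0.08 at 24 h (95% CI -0.71 to 0.88). In WT, 24 h was below 6 h in all 3 arrays, with a difference of -0.70 (adjusted p 0.676).

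Il33 encodes the alarmin IL-33, which acts on innate lymphoid cells and mast cells. It stood at 0.31, 0.09 and -0.27 in KO and at -0.17, -0.25 and -0.16 in WT at 0 h, at 0.07, -0.14 and 0.23 in KO and at 0.42, 0.16 and 0.05 in WT at 6 h, and at 0.16, 0.07 and -0.06 in KO and at -0.73, -0.05 and -0.22 in WT at 24 h. KO group means stayed between 0.04 and 0.06, while those of WT were -0.19, 0.21 and -0.33 at 0, 6 and 24 h. The KO minus WT difference at 24 h was 0.39 log2 units (95% CI 0.03 to 0.74, adjusted p 0.704). In WT, 6 h against 0 h gave 0.40 (95% CI 0.05 to 0.76, adjusted p 0.9999) and 24 h against 6 h gave -0.54 (unadjusted p 0.00543, adjusted p 0.46). The WT arrays of 0 h and those of 24 h all lay below those of 6 h, and neither comparison passed. The difference between genotypes in the 6 h response was -0.39 (95% CI -0.90 to 0.12, adjusted p 0.537).

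Il1rn, the antagonist of the IL-1 receptor, gave no call. Its values stayed within -0.22 and 0.30 in all 18 arrays, the narrowest range of the 10 genes. At 6 h it stood at -0.06, -0.02 and 0.02 in KO and at 0.05, 0.29 and 0.25 in WT. All 3 KO arrays were below all 3 WT arrays, by 0.22 log2 units on average (95% CI of the KO minus WT difference -0.46 to 0.03, adjusted p 0.384). At 0 h and 24 h the genotypes overlapped, with differences of -0.07 and -0.14. Averaged over the times, Il1rn differed by -0.14 (unadjusted p 0.0501, adjusted p 0.407).

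Il1b was also set against its antagonist within each array, as a description only. Il1rn ranged over 0.52 log2 units in all 18 arrays, less than the gaps between KO and WT for Il1b at 6 h and 24 h. Subtracting it could therefore not make those groups overlap. The Il1b value minus the Il1rn value was 1.66, 1.11 and 1.46 log2 units in KO and -0.28, -0.90 and -0.66 in WT at 6 h. At 24 h it was 1.01, 0.55 and 1.03 in KO and -0.63, -2.49 and -0.84 in WT. At 0 h it was 0.42, 0.23 and -1.03 in KO and -0.60, 0.19 and 0.16 in WT. Each gene is centred on its own median, so these are shifts of a ratio between arrays and not the ratio itself. The groups stood apart at 6 h and 24 h and overlapped at 0 h. The antagonist of the IL-36 receptor, Il36rn, was lower in KO at 6 h, at -0.51, -0.36 and -0.71 in KO and 0.12, 0.34 and 0.37 in WT. Its difference was -0.80 log2 units (SE 0.132, adjusted p 0.0138), and those at 0 h and 24 h, -0.15 and -0.34, did not pass (adjusted p 0.879 and 0.681). The 6 h call for Il36rn was lost without KO 6 h replicate 3 (-0.71, adjusted p 0.0704) and without WT 6 h replicate 2 (-0.77, adjusted p 0.0582) or replicate 3 (-0.76, adjusted p 0.0843). That call was also lost in a fit on only the groups compared. Il36rn passed as well in KO at 6 h against 0 h (-0.51, under 17 of 28 alternative fits). Averaged over the times it passed too (-0.43, under 18 of 27).

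Il1r1, the signalling receptor for IL-1 alpha and IL-1 beta, was lower in stripped than in unstressed KO epidermis. In KO it stood at 0.23, 0.65 and 0.42 at 0 h, at -0.015, -0.22 and 0.01 at 6 h, and at -0.37, -0.25 and -0.07 at 24 h. All 6 KO arrays taken after stripping lay below the 3 unstressed ones. In WT it stood at 0.38, -0.01 and -0.17 at 0 h, at 0.22, 0.33 and 0.22 at 6 h, and at -0.21, 0.24 and -0.10 at 24 h, and these overlap. In KO, 24 h against 0 h gave -0.66 log2 units (SE 0.146, 95% CI -0.97 to -0.35, adjusted p 0.0118), which passed, and 6 h against 0 h gave -0.51 (adjusted p 0.0584), which did not. In WT the same comparisons gave -0.09 (adjusted p 0.869) and 0.19 (adjusted p 0.9999).

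Between genotypes, Il1r1 was 0.37 log2 units higher in KO at 0 h (95% CI 0.06 to 0.68, adjusted p 0.483), with overlapping arrays. It was 0.33 lower in KO at 6 h (KO minus WT -0.33, adjusted p 0.276), with no overlap, and differed by -0.20 at 24 h (adjusted p 0.849). The difference between genotypes in the response was -0.70 at 6 h (95% CI -1.14 to -0.26, adjusted p 0.126) and -0.57 at 24 h (95% CI -1.01 to -0.13, adjusted p 0.386). Neither passed, so a different response of KO and WT was not shown for this gene. The 24 h call in KO was lost without KO 0 h replicate 2 (-0.55, adjusted p 0.0567), its highest array, or without KO 24 h replicate 1 (-0.59, adjusted p 0.0527), its lowest. It was -0.76 (adjusted p 0.0178) within label numbers from 3000 up.

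Il1r2, the decoy receptor, had no call. It stood at 0.04, 0.22 and -0.08 in KO and at 0.26, -0.001 and 0.25 in WT at 0 h, at 0.11, -0.31 and -0.26 in KO and at 0.36, 0.001 and -0.32 in WT at 6 h, and at -0.05, -0.32 and -0.19 in KO and at 0.35, -0.48 and 0.11 in WT at 24 h. The genotypes overlapped at every time. Its KO minus WT difference was -0.11, -0.17 and -0.18 log2 units at 0, 6 and 24 h, each with a 95% confidence interval that spans 0.

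**Figure D4:**
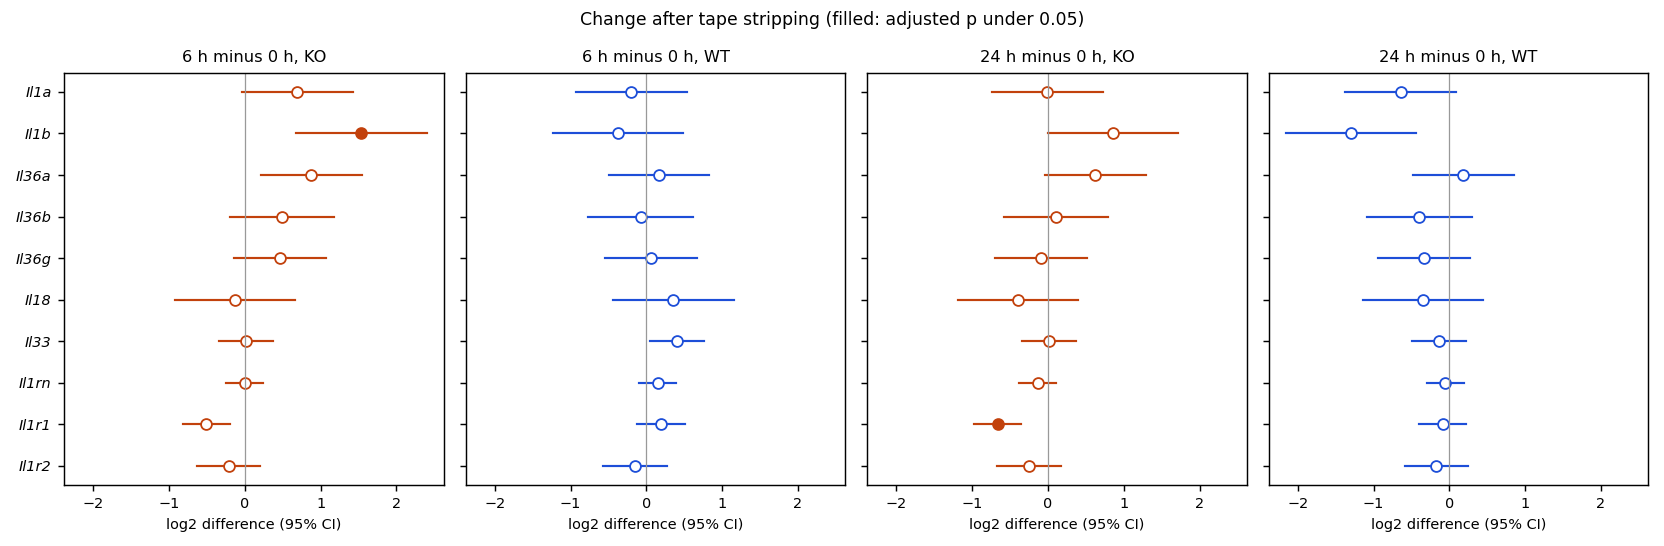
Change of each of the 10 genes against 0 h of the same genotype, as a log2 difference with its 95% confidence interval from limma, at 6 h and 24 h in KO and in WT, filled where the adjusted p was under 0.05. Filled points are Il1b in KO at 6 h (1.54) and Il1r1 in KO at 24 h (-0.66), and no WT point is filled.

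Over time, stripping moved few of the 10 genes past the threshold. In KO, 1 of 10 rose at 6 h against 0 h, against 4.98% of all rows in either direction and 1.57% that rose, and the median of the 10 was 0.24 log2 units against 0.02 for all rows. Groups did not overlap for 4 of the 10, against 24.5% of rows: Il1b, Il36a and Il36g higher and Il1r1 lower. At 24 h against 0 h in KO, 1 of 10 fell, against 9.56% of rows in either direction and 6.47% that fell, and 2 of 10 did not overlap, against 29.5% of rows. In WT limma called 0 of 10 at 6 h against 0 h (0% of rows, with 1 of 10 at an unadjusted p under 0.05 against 4.62% of rows) and 0 of 10 at 24 h (0.0298% of rows, with 1 of 10 unadjusted against 12.5%). From 6 h to 24 h all 10 genes had a negative difference in KO and 9 of 10 in WT, with medians of -0.26 and -0.36. None of these passed in either genotype (1.24% of rows in KO and 0% in WT), and at an unadjusted p under 0.05 there were 0 of 10 in KO against 13.8% of rows and 2 of 10 in WT against 7.79%. For the difference between genotypes in the response, 0 of 10 passed at 6 h (0.731% of rows) and at 24 h (0% of rows), with Il1b and Il1r1 the 2 at an unadjusted p under 0.05 each time, against 13.1% and 9.2% of rows.

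Of the other receptors and decoys of the family, 8 of 9 listed had a row and 0 passed between KO and WT at any time, with medians of 0.04, 0.002 and -0.04 log2 units at 0, 6 and 24 h. In KO at 24 h against 0 h, 2 of 8 fell, where 9.56% of all rows passed in either direction and 6.47% fell. Il1rap, the accessory chain that IL-1, IL-33 and IL-36 receptors share, stood at -0.48, -0.40 and -0.30 at 24 h and at 0.31, 0.25 and 0.41 at 0 h, a difference of -0.72 (adjusted p 0.00532). Il1rap has 3 rows on the array. These values are those of its row of largest SD over the same arrays, and the other rows were not read. Il18r1, the binding chain for IL-18, stood at -0.35, -0.23 and -0.36 at 24 h and at 0.14, 0.42 and 0.35 at 0 h, a difference of -0.62 (adjusted p 0.00298). Both calls held under all 27 alternatives, none of which used another row of Il1rap. In WT, 0 of 8 passed at 24 h against 0 h, and for neither chain was the response shown to differ between genotypes.

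Among inflammasome and processing genes, 22 of 24 had a row. Between KO and WT at 6 h 0 rose and 1 fell, where 2.18% of all rows passed: Nlrp10, a NOD-like receptor that keratinocytes express, with a difference of -0.73 log2 units (adjusted p 0.0463) that passed under 7 of 28 alternatives and a list median of -0.02 against 0.01 for all rows. In KO at 6 h against 0 h, 2 rose (Capn2 and Ctss) and 2 fell (Nlrp10 and P2rx7), or 4 of 22 against 4.98% of all rows. Capn2, a calpain protease (calpain cuts the IL-1 alpha precursor), was higher by 1.43 (adjusted p 0.0128) and Nlrp10 was lower by 0.83 (KO 6 h minus 0 h -0.83, adjusted p 0.0184). The 6 h response of Capn2 also differed between genotypes, by 1.78, a call that passed under 5 of 28 alternatives. It was 1 of 22 there, where 0.731% of all rows passed. In KO at 24 h against 0 h, 3 of 22 fell and 0 rose, against 9.56% of rows that passed in either direction and 6.47% that fell. The 3 were Nek7, which activates the NLRP3 inflammasome (-0.77, adjusted p 0.00261), Nlrp10 (-1.07, adjusted p 0.00298) and Casp1, the caspase that cuts the IL-1 beta precursor (-0.86, adjusted p 0.0437). Casp1 did not pass between KO and WT, with differences of 0.09 at 6 h and 0.07 at 24 h and adjusted p of 0.925 and 0.984. The 24 h fall of Casp1 in KO passed under 12 of 27 alternatives, against all 27 for Nek7 and Nlrp10.

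Of 24 measured genes of signalling below the IL-1 receptor family (28 listed), 0 passed between KO and WT at any time. Their median was -0.14 log2 units at 0 h, -0.17 at 6 h and -0.03 at 24 h, against -0.003, 0.01 and -0.0006 for all rows. For the difference between genotypes in the 6 h response it was -0.07, against 0.01 for all rows. In KO at 6 h against 0 h 1 of 24 rose, against 1.57% of rows: Irak3, an inhibitory member of the IRAK family, by 0.59 (adjusted p 0.0122). Its response differed between genotypes by 0.75 (adjusted p 0.0449), which passed under 10 of 28 alternatives. At 24 h against 0 h in KO, 2 rose (Irak3 and the adaptor gene Myd88, by 0.36) and 2 fell (Tab2 and Map3k7, with differences of -0.54 and -0.50), or 4 of 24 against 9.56% of rows. Irak3 stood at -0.01, 0.23 and 0.43 in KO and at -0.03, -0.08 and 0.03 in WT at 6 h, and at -0.32, -0.47 and -0.32 in KO and at 0.08, 0.002 and 0.32 in WT at 0 h.

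Genes that IL-1 or IL-36 induce in keratinocytes were represented by 35 of 36 listed. Between KO and WT at 6 h, 2 of 35 rose and 0 fell, where 2.18% of all rows passed and 0.366% rose, and the median was 0.06 log2 units against 0.01 for all rows. The 2 were Defb3, a beta-defensin, at 1.04 (adjusted p 0.0331) and Sod2, the mitochondrial superoxide dismutase, at 0.42 (adjusted p 0.0427), and they passed under 22 and 12 of 28 alternatives. At 24 h 0 of 35 passed, with 27 above 0 and a median of 0.15. The smallest p there were those of S100a9, an alarmin subunit (0.69, adjusted p 0.198), and Lcn2, the siderophore-binding lipocalin (1.66, adjusted p 0.391). At 0 h 1 fell, Ptgs2, the inducible cyclooxygenase, with a difference of -2.04 (adjusted p 0.0372) that passed under 14 of 28 alternatives. In KO, 5 of 35 rose at 6 h against 0 h, where 4.98% of all rows passed and 1.57% rose: Defb3, Mmp3, Ptgs2, Plaur and Sod2. Of 28 alternatives, Defb3 passed under 21, Mmp3 under 22, Ptgs2 under 20, Plaur under 16 and Sod2 under 11. KO 6 h replicate 1 stood apart from the other KO arrays of that time: the mean of the 35 genes was 0.51 in it and -0.04 and 0.07 in the others, and that of the neutrophil markers was 0.43 in it and 0.03 and 0.10 in the others. Without that array Mmp3 alone of the 5 passed (0.88, adjusted p 0.0432, against 1.42 with it), and the differences of Defb3 and Ptgs2 were 0.67 and 1.15. At 24 h against 0 h in KO, 5 of 35 rose (S100a9, Cxcl1, Lcn2, Ptgs2 and Plaur) and 1 fell (Steap4), or 6 of 35 against 9.56% of rows. Among these, Lcn2 was higher by 2.04 (adjusted p 0.00729) and Cxcl1, a neutrophil-attracting chemokine, by 1.13 (adjusted p 0.00444). The mean of 12 neutrophil markers was 0.15 to 0.33 in KO at 24 h and -0.11 to -0.01 in KO at 0 h. S100a8 and S100a9 are on both lists, so this mean and that of the 35 genes share rows and move together in part for that reason. The part of neutrophils in these values was not tested. In WT 0 of 35 passed at either time.

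**Figure D5:**
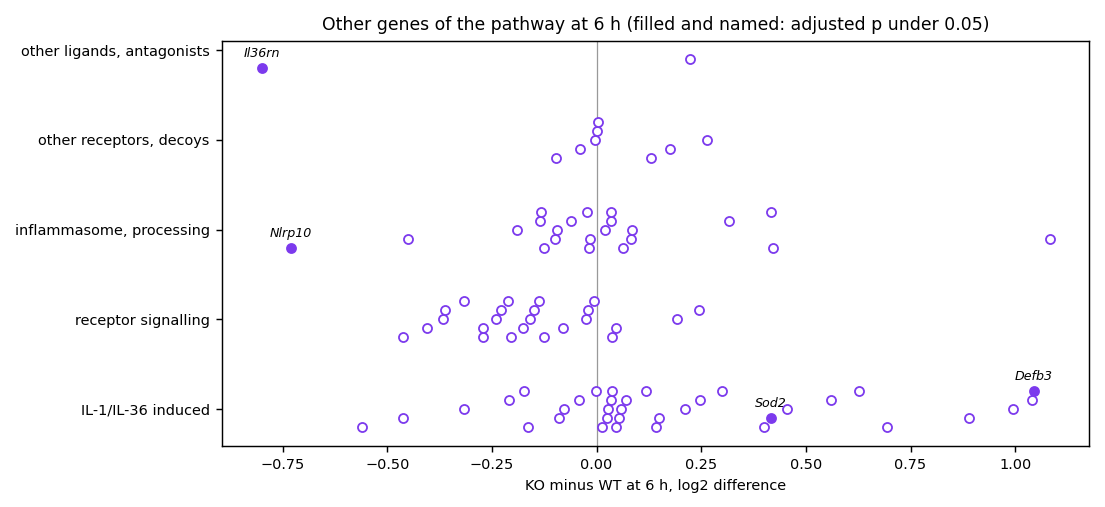
KO minus WT log2 difference at 6 h for each measured gene of 5 lists around the 10 IL-1 family genes (rows; each circle is 1 gene, spread vertically so that circles stay visible), filled and named where the adjusted p was under 0.05. Il36rn (-0.80) and Nlrp10 (-0.73) lie to the left and Defb3 (1.04) and Sod2 (0.42) to the right, while most genes of each list lie near 0.

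The genes whose values followed Il1b most closely over the 18 arrays were Fcgr2b (Pearson r = 0.844), Prss12 (0.816), Arhgap8 (0.814), Tsx (0.807) and Tyrobp (0.801). The gene closest to Il1r1 was Pnrc2 (0.93). These are the highest of all named genes, so they are a description of these arrays. Of 12 listed AhR target genes, 10 had a row. At 6 h 1 of 10 was lower in KO than in WT, where 2.18% of all rows passed. It was Il22ra1 (-0.71 log2 units), which passed under 26 of 28 alternatives. Its 6 h response differed between genotypes by -1.23, where 0.731% of rows passed, and this held under 27 of 28. At 0 h and 24 h 0 of 10 passed between genotypes. In KO against 0 h, 2 fell at 6 h (4.98% of rows passed) and 2 rose at 24 h (9.56%).

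Markers of other cells that a sheet could hold were read beside Il1b. The mean of 12 neutrophil markers lay between 0.03 and 0.43 in KO and between -0.06 and 0.03 in WT at 6 h, and between 0.15 and 0.33 in KO and between -0.03 and 0.02 in WT at 24 h. It was thus higher in all 3 KO arrays at 24 h, and the ranges overlapped at 6 h. Of these 12 genes 0 passed between KO and WT at either time, where 2.18% of all rows passed at 6 h and 0.017% at 24 h. A difference above 0 was seen for 10 at 6 h and 11 at 24 h. S100a8 and S100a9 are on both this list and that of induced genes, and keratinocytes also make them. The mean of 12 monocyte and macrophage markers lay between -0.01 and 0.13 in KO and between -0.02 and 0.09 in WT at 6 h, and between -0.07 and 0.20 in KO and between -0.03 and 0 in WT at 24 h, with 0 of 12 passed at either time. The mean of 8 Langerhans cell markers lay between 0.03 and 0.21 in KO and between -0.09 and 0.29 in WT at 6 h. At 24 h it lay between -0.27 and -0.10 in KO and between -0.32 and 0.07 in WT, with 0 passed at either time. At 0 h it lay between -0.74 and -0.13 in KO and between -0.05 and 0.42 in WT. There 1 of 8 was lower, Mfge8, where 0.0978% of all rows passed. Within KO at 0 h the Langerhans mean was -0.13, -0.43 and -0.74 in replicates 1 to 3, beside Il1b at 0.56, 0.004 and -1.02. Other lists fell in the same order over these replicates: gamma-delta T cell (-0.17, -0.62 and -0.88), neutrophil (-0.01, -0.06 and -0.11), and monocyte and macrophage markers (0.03, -0.05 and -0.16). Keratinocyte markers did so too, over a narrow range. Those of mast cells, fibroblasts, endothelium and melanocytes did not. The label numbers of these replicates rose in that order, at 2374, 3055 and 3121, with replicate 1 alone below 3000. The order of these values therefore cannot be told apart from a possible batch. The mean of 9 markers of epidermal gamma-delta T cells lay between -0.88 and -0.17 in KO and between 0.29 and 0.66 in WT at 0 h. At 6 h it lay between -0.51 and -0.14 in KO and between 0.51 and 0.62 in WT. At 24 h it lay between -0.72 and -0.67 in KO and between 0.01 and 0.52 in WT. Of the 9, 3 were lower in KO at 0 h, 4 at 6 h and 1 at 24 h. Of all rows, 0.0978%, 2.18% and 0.017% passed at these times. Because each row is centred, no marker can be read as absent. The part of any of these cells in the Il1b difference was not tested.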

How the data were processed

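Epidermal sheet RNA of 18 mouse samples (6 groups of 3) was measured on Affymetrix whole-transcript arrays after conversion to biotin-labelled cDNA, per the labels' protocols. Groups and replicate numbers come from the sample titles. The labels speak of littermates, and each array was treated as 1 animal, which is not stated outright, so p-values measure the spread between these samples.

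The authors deposited 1 table of 33793 rows on a log scale, with 0 columns of other samples. The deposited values (-6.4 to 4.3) are taken as log2, and a natural log could not be told apart from it. Every row has a median of 0 within 1e-06, so the authors had centred it. The sources used here do not give the background correction, normalisation or software, and dim rows could not be removed. The number of arrays limits the precision.

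The platform's probe table names 1 gene for 23521 rows (22180 genes), several for 1814 and none for 8458. A gene with several rows stands by its row of largest SD. limma 3.58.1 in R 4.3.3 fitted 1 mean per group over all 18 arrays (12 residual and 2.76 prior degrees of freedom), with 12 two-sided contrasts and Benjamini-Hochberg adjustment over the 23521 rows. The fit was checked on simulated data. Named genes are the 10 members, Ahr, up to 4 genes that passed per list and comparison (or the 2 of smallest p), and the most correlated genes. From the list of AhR target genes Il22ra1 alone was named, which is fewer than this rule gives. Casp1 between genotypes and the remaining genes of counts up to 5 were named beyond this rule, after their values were seen. The members and lists were chosen with earlier results of these data known. Alternatives were a second quantile normalisation, a median shift, all rows, a robust prior, array weights, only the groups compared, the replicate number as a block, the label number as a term, fits within each class of that number, and each array left out.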

Additional observations from a re-analysis of the deposited data

How the results depend on the processing

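Over the 10 genes, 12 comparisons and all alternatives, 3250 of 3290 values kept their direction and their side of the threshold, 32 lost a call (4 of these in fits with 1 array in a group compared), 8 gained one and 0 turned a called direction; 159 changed sign where neither value passed. Leaving out fits with 1 array in a group compared, Il1b between KO and WT at 6 h passed under 21 of 27 alternatives, Il1b at 6 h against 0 h in KO under 15 of 26, Il1b averaged over the times under 17 of 26 and Il1r1 at 24 h against 0 h in KO under 25 of 27. Left-out arrays moved these values from 1.70 to 1.95, 1.11 to 1.89, 1.07 to 1.39 and -0.76 to -0.55. Il1b at 6 h against 0 h in KO lost its call without KO 0 h replicate 3 (1.11, adjusted p 0.172) and with only the groups compared (adjusted p 0.0895). Within label numbers below 3000 it was 0.72 and from 3000 up 2.10, but these fits have 1 KO array at 0 h and 1 at 6 h in that order, take the spread from other groups and say nothing about the call. The same holds for all fits within a number class but KO against WT at 6 h and WT at 6 h against 0 h below 3000, and KO against WT at 24 h and KO at 24 h against 0 h from 3000 up. Counts of alternatives for listed pathway genes include such fits. Array weights added Il1r1 at 6 h against 0 h in KO (adjusted p 0.0269) and its difference between genotypes in that response (adjusted p 0.0295). Of the 45 calls of listed pathway genes outside the 10, 9 held under every alternative run, and all 45 kept their sign. The 45 include calls of the listed AhR target genes. Why these values moved was not tested, beyond the fewer arrays in such fits.

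Of the 10 genes, 1 passed between KO and WT at 6 h, against 0 with only the groups compared or within numbers from 3000 up, and 0 to 1 with an array left out. At 6 h against 0 h in KO 1 passed, against 0 with only the groups compared, all rows, the label number as a term or numbers below 3000, 2 with array weights, and 0 to 2 with an array left out. At 24 h against 0 h in KO 1 passed, and 0 to 1 with an array left out. In the difference between genotypes in the 6 h response 0 passed, against 1 with array weights and 0 to 1 with an array left out. Averaged over the times 1 passed, against 0 within numbers from 3000 up and 0 to 1 with an array left out.

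Counts over all rows moved more. Between KO and WT at 0 h 23 rows passed, against 0 with only the groups compared, 15 with quantile normalisation, 188 with array weights, 1 within numbers below 3000, 0 from 3000 up and 5 to 59 with an array left out. At 6 h 513 passed, against 0 with only the groups compared, 287 with quantile normalisation, 1025 with array weights, 1660 within numbers below 3000, 0 from 3000 up and 16 to 1068 with an array left out. At 24 h 4 passed, against 1 with only the groups compared, 12 with all rows, 9 with the label number as a term and 1 to 6 with an array left out. Averaged over the times 88 passed, against 226 with array weights, 3 from 3000 up and 44 to 322 with an array left out. In KO at 6 h against 0 h 1172 passed, against 661 with only the groups compared, 1856 with array weights, 1 within numbers below 3000 and 159 to 1685 with an array left out. In WT at 6 h 0 passed, against 1 below 3000, 6 from 3000 up and 0 to 0 with an array left out. In KO at 24 h against 0 h 2249 passed, and 1029 to 2610 with an array left out. In WT at 24 h 7 passed, against 2 with only the groups compared, 264 with quantile normalisation, 3 with the median shift, 4 with all rows, 0 with the robust prior, 164 with array weights, 390 from 3000 up and 0 to 135 with an array left out. At 24 h against 6 h 292 passed in KO, against 3 with only the groups compared, 85 with quantile normalisation, 36 with the label number as a term, 1 from 3000 up and 11 to 842 with an array left out, and 0 passed in WT, against 4 with quantile normalisation and 0 to 19 with an array left out. For the difference between genotypes in the response 172 passed at 6 h, against 72 with only the groups compared, 79 with all rows, 95 with the robust prior, 864 with array weights, 0 from 3000 up and 2 to 749 with an array left out, and 0 passed at 24 h, against 3 with quantile normalisation, 9 with array weights and 0 to 32 with an array left out.

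The replicate numbers only name samples: same-numbered KO and WT samples of a time had correlated deviations of -0.458 to 0.251, and 1 of 9 pairs was over 0.1. With the replicate number as a block, 8 rows passed between KO and WT at 0 h, 314 at 6 h, 0 in WT at 24 h against 0 h and 49 for the difference in the 6 h response.

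Row-centred values without counts, detection or absolute level leave the signal over background of each gene unknown, and 3 arrays a group leave small differences undecided.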
